A study of Mus musculus with 22 samples.

Results

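Interferon-stimulated genes are the genes that cells switch on when interferon reaches their surface receptors. The 37 genes described here are well-known members of this group, from a list chosen with earlier results of these data known. Shares of members set beside those of all genes below therefore describe these data and are not independent of them. Each gene was read from the probe set annotated to it alone, or from the probe set with the highest mean where there were several. Of the 37 listed genes, 33 had such a probe set, among 18820 genes measured. Parp9 and Dtx3l share 1 probe set, Igtp shares its probe set with Irgm2, and these genes and Ifi44 were not analysed here.

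Gene expression was measured by array in the hypothalamus, the brain region that controls appetite and energy balance, of 22 mice, all male and of the C57BL/6 strain, and each mouse gave 1 array. The tumour-bearing mice received 500000 Lewis lung carcinoma cells, a transplantable mouse tumour line, by injection into the muscle of a hind leg at 6 weeks of age. They were killed 10 days (5 mice), 14 days (7 mice) or 17 days (6 mice) later, and 4 control mice were killed on day 14. All mice were housed singly on the same purified diet and were anaesthetised with ketamine and xylazine at dissection. The labels do not say whether the controls received an injection. There were no controls of day 10 or day 17, so those comparisons also hold a difference of days. The title of the study names tumour cachexia, food intake and hypothalamic serotonin signalling as its subject.

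Type I interferons act through the receptor chains IFNAR1 and IFNAR2 and the kinases JAK1 and TYK2. They lead to a complex named ISGF3, which holds STAT2 and IRF9 and binds an element, the interferon-stimulated response element (ISRE), in the promoters of its target genes. Interferon gamma acts through another receptor, and its targets often hold a different element named GAS. The products sense viral RNA or DNA, cut or trap viral RNA, block viral entry, or tag proteins with the ubiquitin-like protein ISG15. In the brain, microglia, endothelial cells, astrocytes, ependymal cells and neurons can all express such genes.

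Promoters of members that hold an ISRE-type match are shown first, because the ISRE is the sequence that these genes are known to share. The windows come from RefSeq (mouse build GRCm38.p6), and the printed part covers 170 bases before to 30 bases after the annotated start, 5′ to 3′ on the strand of the gene. Capitals mark matches to the core of the ISRE (GAAA, any 2 bases, GAAA) or to its reverse complement. The promoters shown are those of the called members that hold a match, followed by others in order of the F test. Of those shown, Gbp2, Ifit3, Ifit1, Bst2 and Trim30a were not called in any comparison. The called members Oasl2, without a match, and Ifi27l2a, without a window, are not shown. They lie at chr12:26456423-26456622, minus strand (Rsad2), chr7:141010715-141010914, minus strand (Ifitm3), chr17:78882543-78882742, minus strand (Eif2ak2), chr3:142620493-142620692, plus strand (Gbp2), chr19:34583359-34583558, plus strand (Ifit3), chr19:34640719-34640918, plus strand (Ifit1), chr8:71537443-71537642, minus strand (Bst2) and chr7:104465164-104465363, minus strand (Trim30a).
Rsad2: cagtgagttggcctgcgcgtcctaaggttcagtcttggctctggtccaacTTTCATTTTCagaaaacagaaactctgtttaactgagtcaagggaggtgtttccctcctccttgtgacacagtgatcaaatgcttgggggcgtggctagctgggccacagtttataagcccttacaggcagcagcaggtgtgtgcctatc
Ifitm3: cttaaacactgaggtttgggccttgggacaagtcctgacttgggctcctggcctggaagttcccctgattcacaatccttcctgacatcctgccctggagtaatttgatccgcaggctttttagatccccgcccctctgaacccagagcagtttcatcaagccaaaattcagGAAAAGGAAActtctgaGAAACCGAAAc
Eif2ak2: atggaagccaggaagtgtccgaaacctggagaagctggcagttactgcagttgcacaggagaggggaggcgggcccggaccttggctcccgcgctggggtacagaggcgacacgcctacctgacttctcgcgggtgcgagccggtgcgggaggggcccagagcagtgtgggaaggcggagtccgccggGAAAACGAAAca
Gbp2: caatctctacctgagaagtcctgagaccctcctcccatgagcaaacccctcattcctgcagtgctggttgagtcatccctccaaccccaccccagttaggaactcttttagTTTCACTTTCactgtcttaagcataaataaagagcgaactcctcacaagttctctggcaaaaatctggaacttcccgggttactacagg
Ifit3: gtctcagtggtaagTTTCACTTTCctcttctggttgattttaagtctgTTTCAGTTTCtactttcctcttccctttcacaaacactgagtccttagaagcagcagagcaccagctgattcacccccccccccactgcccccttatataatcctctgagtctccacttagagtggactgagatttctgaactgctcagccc
Ifit1: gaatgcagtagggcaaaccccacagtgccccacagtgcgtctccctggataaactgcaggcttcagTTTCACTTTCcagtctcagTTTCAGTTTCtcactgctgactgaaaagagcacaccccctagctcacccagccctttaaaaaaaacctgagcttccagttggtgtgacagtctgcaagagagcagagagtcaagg
Bst2: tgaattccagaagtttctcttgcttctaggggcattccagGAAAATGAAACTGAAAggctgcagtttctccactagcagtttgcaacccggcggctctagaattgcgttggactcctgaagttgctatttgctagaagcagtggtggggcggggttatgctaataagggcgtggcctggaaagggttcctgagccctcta
Trim30a: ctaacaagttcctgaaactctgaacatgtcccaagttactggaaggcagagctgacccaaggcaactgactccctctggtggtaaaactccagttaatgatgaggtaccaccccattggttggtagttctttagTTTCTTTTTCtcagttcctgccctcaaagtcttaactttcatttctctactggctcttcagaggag

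The match lay downstream of the start in Ifitm3 and Eif2ak2 and upstream of it in the other 6 promoters. Ifitm3, Ifit3, Ifit1 and Bst2 each held 2 matches, which overlap in Bst2. Over the full RefSeq window of 250 bases before to 50 after the start, searched on both strands, this ISRE core was found in 14 of the 27 measured members that have a window (51.9%). It was found in 3.44% of all 32851 windows and in 3.91% of the 14749 measured genes with a window. The GAS-type motif TTCNNNGAA was found in 7 of the 27 members (25.9%), against 8.30% of all windows and 9.06% of the measured genes with a window. The motifs can overlap, as they do in Bst2 and Ifitm3. A match is a stretch of letters and no evidence of binding. Oasl2, Cmpk2 and Irf7 were among the members with neither motif in the window, and Usp18, Zbp1, Parp14, Rtp4, Dhx58 and Ifi27l2a had no window.

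The arrays were alike in scale, with medians between 5.27 and 5.342 and correlations between arrays of 0.980 to 0.995. As a measure of background served the 1182 probe sets of odour and pheromone receptors, which should hardly be expressed here; 95% of them averaged at most 3.868. Hypothalamus markers were present, with 12 of 13 above that level. Every measured member had values above it on all 22 arrays except Irf7 (21 arrays) and Isg15 (6 arrays). Isg15 therefore had little signal over background. Its probe set and the one used for Ifitm2 are numbered among probe sets of other chromosomes than their genes, so these assignments are uncertain; for the other Ifitm2 probe sets the differences on day 10 were 0.32 ± 0.15 and 0.54 ± 0.17.

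Expression of the interferon-stimulated genes was mostly higher in tumour-bearing than in control hypothalamus, by small amounts. The mean was above the control mean in 32 of the 33 members on day 10, in 30 on day 14 and in 31 on day 17, against 50.3%, 48.0% and 46.3% of all genes. The median log2 difference of the members was 0.35 on day 10, 0.26 on day 14 and 0.21 on day 17, while the median of all genes was between -0.011 and 0.00060. Differences are log2 differences of group means with their SE from limma, and a gene was called where its Benjamini-Hochberg adjusted p over all 18820 genes was below 0.05. On day 10, 3 of the 33 members were called higher (Oasl2, Ifitm3 and Ifi27l2a), against 0.101% of all genes. On day 14, 2 were called higher (Oasl2 and Rsad2), against 0.197% of all genes. On day 17, 3 were called higher (Oasl2, Rsad2 and Eif2ak2), against 0.436% of all genes. No member was called lower on any day, against 0.00531%, 0.0213% and 0.685% of all genes. Without the adjustment, limma's p was below 0.05 with a higher mean in 23, 18 and 18 members on days 10, 14 and 17, against 5.27%, 4.28% and 6.13% of all genes, and with a lower mean in 0 members, against 5.43%, 6.18% and 10.5%.

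The counts of calls depended on single mice, most of all on the 4 controls, and this held for all genes as for the members. Without control replicate 1, 2 or 3, no member was called on days 10 and 14; of all genes, 0 were then called on day 10 and 4, 2 and 2 on day 14, against 20 and 41 with every array. Without replicate 2, 4 or 5 of day 10, 1 member was called on day 10, among 1, 2 and 8 of all genes. On day 14 there were 4 member calls without replicate 6 of day 14 (115 of all genes) and 5 without control replicate 4 (109 of all genes). On day 17, where 211 of all genes were called with every array, there were 7 member calls without replicate 6 of day 17 (382 of all genes) or control replicate 4 (260), and 5 without replicate 1, 5 or 6 of day 14 (239, 187 and 208). The added calls on days 14 and 17 were among Ifitm3, Ifit3, Ifi27l2a and Lgals3bp. The median difference over these fits was 0.34 to 0.38 on day 10, 0.22 to 0.31 on day 14 and 0.19 to 0.29 on day 17. The samples fall into 2 runs of sample numbers, of 9 arrays with 1 control and 13 arrays with 3 controls; with the first run alone no member and 1 of all genes was called on each day, with the second run alone no gene was, and the medians were 0.37, 0.33 and 0.28 in the first and 0.34, 0.19 and 0.23 in the second on days 10, 14 and 17.

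**Figure D1:**
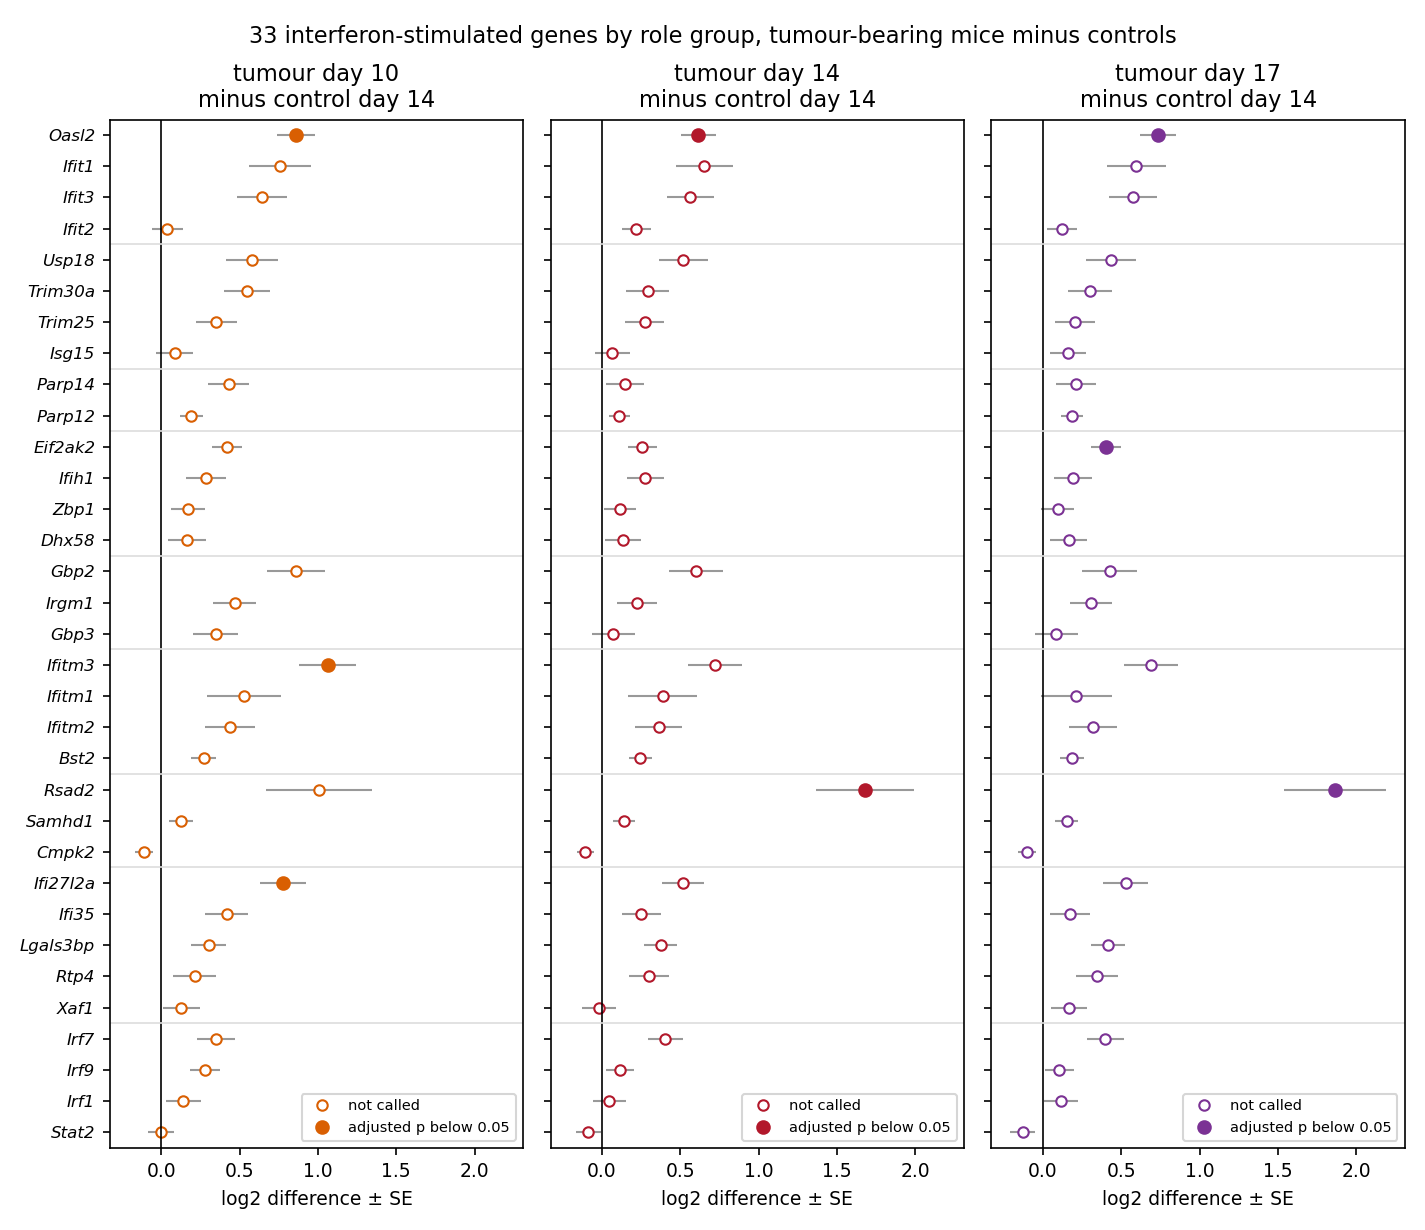
The log2 difference of each of the 33 genes (rows, grouped by role) between tumour-bearing mice of day 10, 14 or 17 and control mice, with bars of 1 SE from limma. Filled points have an adjusted p below 0.05 over all genes. Most points lie right of 0 on each day, and Rsad2 is the farthest right on days 14 and 17.

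Each array was also summarised by the mean, over the 33 members, of its value minus the control mean. This mean lay between 0.33 and 0.55 on tumour day 10, between 0.13 and 0.55 on tumour day 14 and between 0.13 and 0.53 on tumour day 17, and between -0.091 and 0.16 in the controls. All 5 arrays of day 10 lay above all controls. Replicate 4 was the highest control at 0.16, and 2 arrays of tumour day 14 and 1 of tumour day 17 lay below it. That control had the highest control value in 21 of the 33 members.

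**Figure D2:**
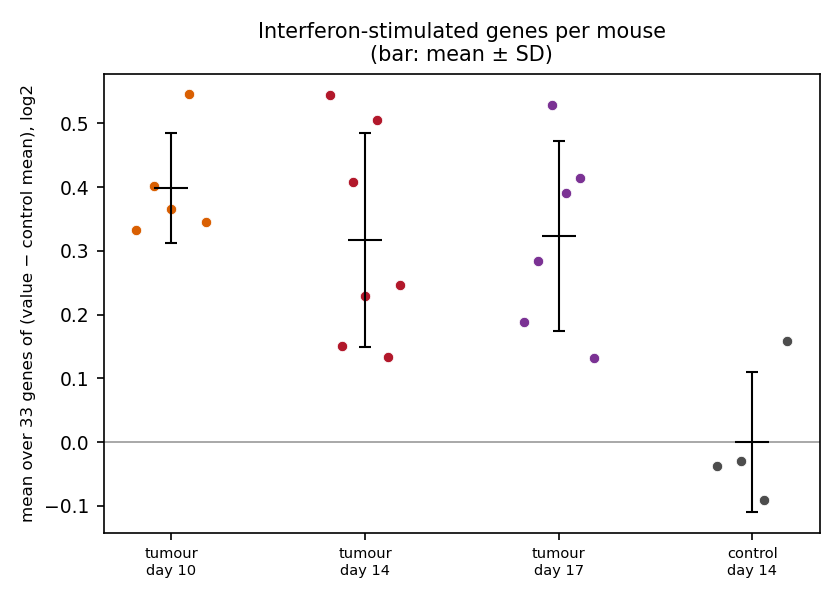
The mean over the 33 genes of each mouse's log2 value minus the control mean (y axis) in the 4 groups (x axis); each point is 1 mouse and bars show the mean and SD of the group. The day 10 mice lie between 0.33 and 0.55, all above the highest control at 0.16, whereas days 14 and 17 reach down to 0.13.

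Oasl2 was the one member called on all 3 days. It belongs to the oligoadenylate synthetase family, whose members respond to double-stranded RNA. Oasl2 measured 7.14, 6.94, 7.12, 7.07 and 7.11 in the tumour-bearing mice of day 10. Its lowest, median and highest log2 values were 6.62, 6.82 and 7.20 on tumour day 14 and 6.66, 6.95 and 7.20 on tumour day 17, against 6.16, 6.04, 6.14 and 6.53 in the controls. No tumour-bearing mouse of any day overlapped the controls. The log2 difference was 0.86 ± 0.12 on day 10 (1.81-fold, adjusted p = 0.00629). It was 0.61 ± 0.11 on day 14 (adjusted p = 0.0148) and 0.73 ± 0.12 on day 17 (adjusted p = 0.00276). Without control replicate 1, 2 or 3 the adjusted p was 0.0537 to 0.0639 on day 10 and 0.0900 to 0.104 on day 14, and on day 17 it stayed at most at 0.0221 whichever array was left out.

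The other members of this role group encode IFIT proteins, which bind viral RNA that lacks the host's cap marks. The 5 mice of tumour day 10 had Ifit3 values of 7.65, 7.66, 7.83, 7.89 and 7.85, those of tumour day 14 ran over 7.23, 7.75 and 7.94 (lowest, median and highest), those of tumour day 17 over 7.31, 7.77 and 8.07, and the controls had 7.01, 7.01, 7.00 and 7.51. On day 10 every tumour-bearing mouse was above the highest control, which stood apart from the other controls. The differences of Ifit3 were 0.64 ± 0.16, 0.56 ± 0.15 and 0.58 ± 0.15 on days 10, 14 and 17, with adjusted p between 0.0686 and 0.16. Ifit1 had means of 5.94 ± 0.30, 5.84 ± 0.22 and 5.78 ± 0.43 on tumour days 10, 14 and 17, against 5.18 ± 0.30 in controls (SD, n = 5, 7, 6 and 4). Its differences were 0.76 ± 0.20, 0.65 ± 0.18 and 0.60 ± 0.19 (lowest adjusted p = 0.118). Ifit2 did not share this size, with differences of 0.04 ± 0.10, 0.22 ± 0.09 and 0.12 ± 0.10.

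Ifitm3 encodes a membrane protein that blocks virus entry by fusion. It had the largest day 10 difference of the 33 members. For Ifitm3 the log2 values were 8.13, 8.61, 8.51, 8.68 and 8.66 on tumour day 10. They were 7.75, 8.09 and 8.75 as lowest, median and highest on tumour day 14 and 7.85, 8.14 and 8.52 on tumour day 17, and 7.07, 7.53, 7.38 and 7.83 in the controls. No mouse of day 10 or day 17 overlapped the controls, whereas day 14 did. The log2 difference was 1.06 ± 0.18 on day 10 (2.09-fold, adjusted p = 0.028). It was 0.72 ± 0.17 on day 14 and 0.69 ± 0.17 on day 17, where it was not called (adjusted p = 0.0826 and 0.0542). The day 10 call was lost, at adjusted p of 0.0502 to 0.182, without control replicate 1, 2 or 3 or without replicate 2, 4 or 5 of day 10, with differences of 0.94 to 1.09.

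Ifitm1 and Ifitm2, close relatives of Ifitm3, had day 10 differences of 0.53 ± 0.24 and 0.44 ± 0.16, day 14 differences of 0.39 ± 0.22 and 0.36 ± 0.15, and day 17 differences of 0.21 ± 0.23 and 0.32 ± 0.15. Neither was called. Because the Ifitm genes are similar in sequence, their probe sets may share signal. Bst2 encodes tetherin, which holds budding virus at the cell surface. Bst2 measured 5.07, 5.11, 5.21, 5.29 and 5.08 in the tumour-bearing mice of day 10. Its lowest, median and highest log2 values were 4.95, 5.12 and 5.36 on tumour day 14 and 4.89, 5.06 and 5.23 on tumour day 17, against 4.88, 4.96, 4.89 and 4.79 in the controls. Its differences were 0.27 ± 0.08, 0.24 ± 0.07 and 0.19 ± 0.08 (adjusted p between 0.2 and 0.229), and on day 10 alone the mice did not overlap the controls.

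Ifi27l2a, a gene strongly induced by interferon whose product is a small mitochondrial protein, was called on day 10. The 5 mice of tumour day 10 had Ifi27l2a values of 4.98, 4.94, 4.62, 4.94 and 4.92, those of tumour day 14 ran over 4.43, 4.50 and 5.18 (lowest, median and highest), those of tumour day 17 over 4.32, 4.68 and 4.84, and the controls had 3.89, 3.88, 4.20 and 4.45. On day 10 no mouse overlapped the controls, and on days 14 and 17 the ranges did. The differences were 0.78 ± 0.15 on day 10 (adjusted p = 0.034), 0.52 ± 0.14 on day 14 (adjusted p = 0.131) and 0.53 ± 0.14 on day 17 (adjusted p = 0.0684). Of the 22 fits that each left out an array, 8 lost the day 10 call (without control replicate 1, 2 or 3, replicate 1, 2, 4 or 5 of day 10, or replicate 4 of day 17), with differences of 0.70 to 0.81. Lgals3bp encodes a secreted galectin-binding glycoprotein. For Lgals3bp the log2 values were 7.89, 7.85, 8.02, 7.82 and 7.85 on tumour day 10. They were 7.74, 7.97 and 8.25 as lowest, median and highest on tumour day 14 and 7.58, 8.04 and 8.18 on tumour day 17, and 7.56, 7.59, 7.40 and 7.78 in the controls. Its differences were 0.30 ± 0.11 on day 10 (adjusted p = 0.343), 0.38 ± 0.11 on day 14 (adjusted p = 0.154) and 0.41 ± 0.11 on day 17 (adjusted p = 0.063). Of the remaining members of mixed function, Ifi35 differed by 0.42 ± 0.14, 0.25 ± 0.13 and 0.17 ± 0.13 on days 10, 14 and 17, Rtp4 by 0.21 ± 0.14, 0.30 ± 0.13 and 0.35 ± 0.13, and Xaf1 differed by 0.13 ± 0.12, -0.02 ± 0.11 and 0.17 ± 0.11; none was called.

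Rsad2 encodes viperin, an enzyme that makes a chain-terminating nucleotide against viral polymerases, and it had the largest difference of any member on days 14 and 17. Rsad2 measured 5.77, 5.59, 6.07, 6.84 and 5.41 in the tumour-bearing mice of day 10. Its lowest, median and highest log2 values were 5.74, 6.59 and 7.25 on tumour day 14 and 6.33, 6.58 and 8.07 on tumour day 17, against 4.80, 4.79, 4.40 and 5.73 in the controls. Day 10 overlapped the controls, in which replicate 4 was the highest at 5.73. On day 14 all 7 mice were above that control, the lowest by 5.74 against 5.73, and on day 17 all 6 were. The difference was 1.01 ± 0.34 on day 10 (adjusted p = 0.299), 1.68 ± 0.31 on day 14 (3.2-fold, adjusted p = 0.0182) and 1.87 ± 0.32 on day 17 (3.64-fold, adjusted p = 0.00534). Replicate 3 of day 17 stood apart at 8.07, above the others at 6.33 to 6.77. Over all fits that left out 1 array the day 17 difference was 1.61 to 2.13, with adjusted p up to 0.0390. The day 14 difference was 1.502 to 1.94, and its call was lost without control replicate 1, 2 or 3 (adjusted p = 0.0995 to 0.142).

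**Figure D3:**
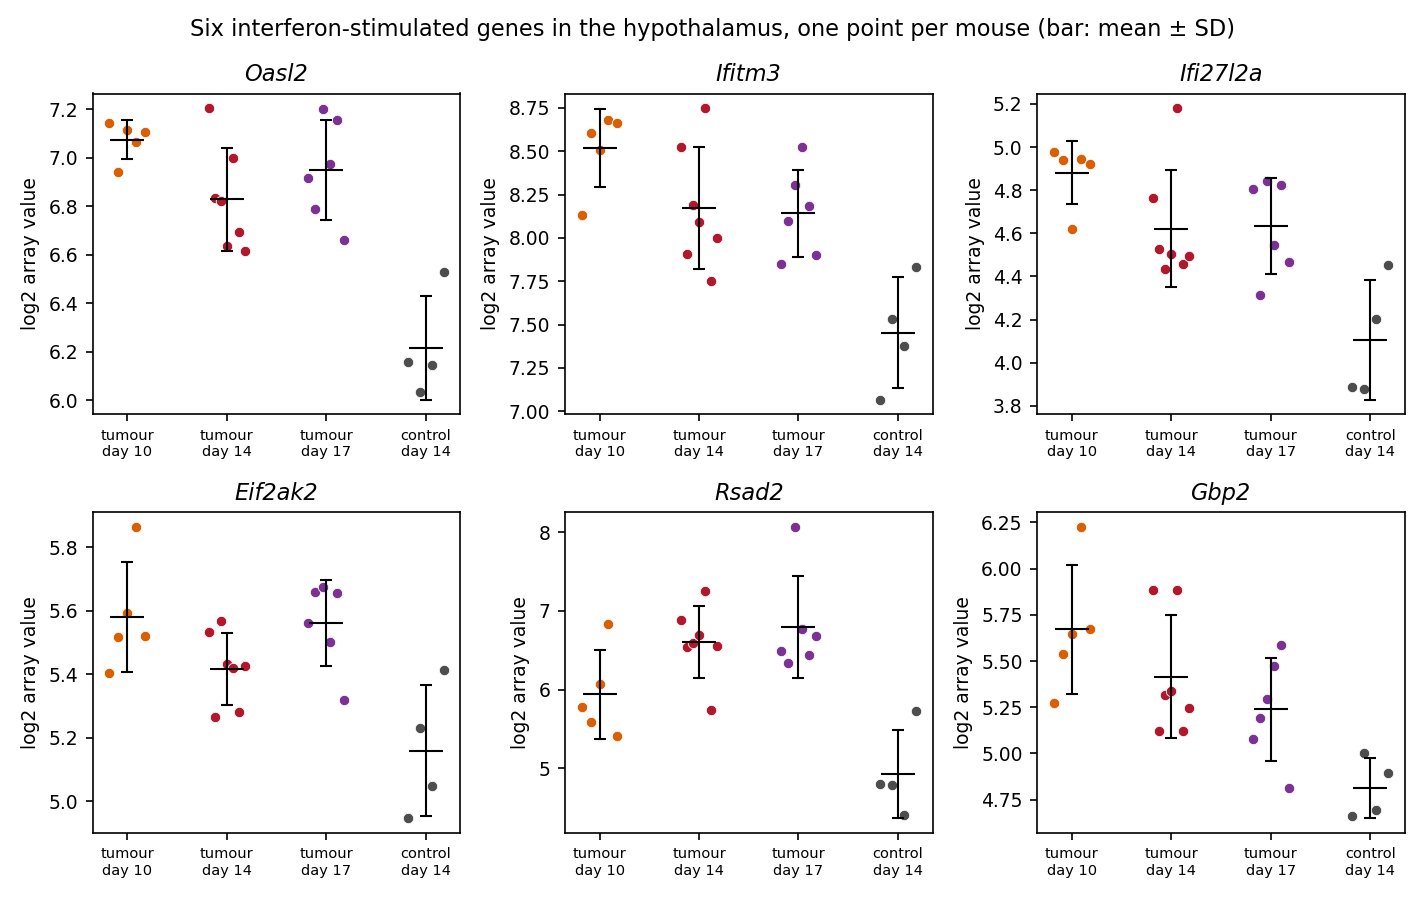
Log2 array values (y axes) of the 5 called genes and Gbp2 in each mouse of tumour days 10, 14 and 17 and of control day 14 (x axes); black bars show the mean and SD. Oasl2 is above all controls in every tumour-bearing mouse. Rsad2 reaches 8.07 in 1 mouse of day 17, and its highest control stands at 5.73.

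The mice highest in Rsad2 were also highest in red blood cell genes. The summed level of the 4 red cell markers measured (Alas2, Slc4a1, Epb42 and Rhag, of 10 listed), given as their mean log2 value, was 4.26 to 4.98 on tumour day 10, 4.36 to 5.36 on tumour day 14 and 4.90 to 5.88 on tumour day 17, against 3.62 to 4.34 in controls. None overlapped the controls on days 14 and 17. All 4 had a higher mean than controls on each day, and 0, 2 and 3 of them were called on days 10, 14 and 17. Alas2, the erythroid enzyme of haem synthesis, was higher by 2.03 ± 0.33 on day 14 (adjusted p = 0.00738) and by 2.42 ± 0.34 on day 17 (adjusted p = 0.00128), and Slc4a1, which encodes band 3 of red blood cells, by 1.69 ± 0.34 and 2.10 ± 0.35 (adjusted p = 0.0288 and 0.00372). Epb42 and Rhag lay below the background measure in most arrays. In all 4 groups, the array highest in the red cell mean was the array highest in Rsad2. Of the 33 members, only Rsad2 and Irgm1 shared the highest array in all 4 groups. Another 8 shared it in 3 groups, 9 in 2, 10 in 1 and 4 in none. These arrays were highest in many members: control replicate 4 in 21, replicate 4 of day 10 in 16, replicate 5 of day 14 in 7 and replicate 3 of day 17 in 16. The sharing was not counted over all genes, so these counts are descriptions. The array highest in the mean of the meningeal fibroblast markers was the highest array of Ifitm3 and Ifit1 in all 4 groups and of Rsad2, Irgm1, Zbp1, Ifitm1 and Ifitm2 in 3.

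With the red cell mean as a term in the fit, which was chosen after the data were seen, no gene of all 18820 was called on any day, members included. Rsad2 then differed from controls by 0.11 ± 0.15 on day 10, 0.090 ± 0.18 on day 14 and -0.19 ± 0.22 on day 17, and the median of the members was 0.19, -0.0022 and -0.087. Oasl2 differed by 0.65 ± 0.11 on day 10 (adjusted p = 0.207), and by less on day 14 (0.24 ± 0.14, adjusted p = 0.9999) and day 17 (0.25 ± 0.16, adjusted p = 0.9998) than the 0.61 and 0.73 without the term. Since the red cell mean separated days 14 and 17 from controls, the red cell level and the group cannot be told apart there. Fewer cells of a type and less RNA per cell cannot be told apart in any of these bulk values.

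The other enzymes of nucleotides did not follow Rsad2. Samhd1 encodes a hydrolase that lowers the supply of deoxynucleotides. The 5 mice of tumour day 10 had Samhd1 values of 7.63, 7.52, 7.49, 7.44 and 7.33, those of tumour day 14 ran over 7.38, 7.50 and 7.62 (lowest, median and highest), those of tumour day 17 over 7.38, 7.48 and 7.71, and the controls had 7.31, 7.39, 7.18 and 7.54. The groups overlapped on each day, and its differences were 0.13 ± 0.08, 0.14 ± 0.07 and 0.15 ± 0.07 (lowest adjusted p = 0.298). Cmpk2, the mitochondrial nucleotide kinase whose gene neighbours Rsad2, was the one member with its highest mean in controls. It averaged 7.27 ± 0.09, 7.28 ± 0.08 and 7.28 ± 0.06 on tumour days 10, 14 and 17 and 7.38 ± 0.06 in controls, and its differences of -0.11, -0.11 and -0.10 were not called (lowest adjusted p = 0.365).

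Among the sensors of viral nucleic acid, Eif2ak2 was called on day 17. It encodes the kinase PKR, which stops translation when it binds double-stranded RNA. For Eif2ak2 the log2 values were 5.40, 5.52, 5.59, 5.87 and 5.52 on tumour day 10. They were 5.27, 5.43 and 5.57 as lowest, median and highest on tumour day 14 and 5.32, 5.61 and 5.67 on tumour day 17, and 4.95, 5.23, 5.05 and 5.41 in the controls. The groups overlapped on each day, because control replicate 4 stood at 5.41. The differences were 0.42 ± 0.10 on day 10 (adjusted p = 0.13), 0.26 ± 0.09 on day 14 (adjusted p = 0.3) and 0.40 ± 0.09 on day 17 (adjusted p = 0.0408). Without 1 array, the day 17 difference was 0.33 to 0.49, and the call was lost in 9 of 22 such fits, those without control replicate 1, 2 or 3, replicate 1, 2, 3, 4 or 5 of day 17, or replicate 2 of day 10.

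Ifih1 encodes MDA5, a sensor of long double-stranded RNA. Ifih1 measured 5.24, 5.31, 5.17, 5.30 and 5.16 in the tumour-bearing mice of day 10. Its lowest, median and highest log2 values were 4.78, 5.21 and 5.55 on tumour day 14 and 4.85, 5.09 and 5.48 on tumour day 17, against 4.91, 4.93, 4.94 and 5.02 in the controls. On day 10 the mice lay above the controls, whereas days 14 and 17 overlapped them. Its differences were 0.29 ± 0.13, 0.28 ± 0.12 and 0.20 ± 0.12 (lowest adjusted p = 0.407). Dhx58, which encodes the related protein LGP2, differed by 0.17 ± 0.12, 0.13 ± 0.11 and 0.16 ± 0.12, and the nucleic acid sensor gene Zbp1 by 0.17 ± 0.11, 0.11 ± 0.10 and 0.10 ± 0.10; neither was called.

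The interferon-inducible GTPases attack the vacuoles of intracellular pathogens and respond strongly to interferon gamma. The 5 mice of tumour day 10 had Gbp2 values of 5.27, 5.54, 5.65, 6.23 and 5.67, those of tumour day 14 ran over 5.12, 5.31 and 5.89 (lowest, median and highest), those of tumour day 17 over 4.81, 5.24 and 5.58, and the controls had 4.66, 5.00, 4.69 and 4.90. Days 10 and 14 did not overlap the controls, and day 17 did. Gbp2 differed by 0.86 ± 0.18 on day 10 (adjusted p = 0.088), 0.60 ± 0.17 on day 14 (adjusted p = 0.167) and 0.43 ± 0.18 on day 17 (adjusted p = 0.234). For Irgm1 the log2 values were 5.80, 5.88, 5.84, 6.20 and 5.86 on tumour day 10. They were 5.30, 5.72 and 6.03 as lowest, median and highest on tumour day 14 and 5.42, 5.74 and 6.07 on tumour day 17, and 5.35, 5.28, 5.39 and 5.76 in the controls. Day 10 lay above the controls, and the later days overlapped them. The Irgm1 differences were 0.47 ± 0.14, 0.22 ± 0.13 and 0.31 ± 0.13 (lowest adjusted p = 0.225), and those of Gbp3 were 0.35 ± 0.14, 0.07 ± 0.13 and 0.09 ± 0.14 (lowest adjusted p = 0.399).

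Usp18 and Trim30a were the leading genes of the ISG15 and ubiquitin group. Usp18 encodes the protease that removes ISG15 from proteins and dampens signalling at the interferon receptor. Usp18 measured 5.38, 5.70, 5.25, 5.70 and 5.37 in the tumour-bearing mice of day 10. Its lowest, median and highest log2 values were 4.90, 5.43 and 5.91 on tumour day 14 and 5.02, 5.34 and 5.72 on tumour day 17, against 4.86, 4.74, 4.96 and 5.05 in the controls. The mice of day 10 lay above the controls and those of days 14 and 17 overlapped them. The differences were 0.58 ± 0.17, 0.52 ± 0.16 and 0.43 ± 0.16 (lowest adjusted p = 0.178). The 5 mice of tumour day 10 had Trim30a values of 6.52, 6.20, 6.32, 6.27 and 5.99, those of tumour day 14 ran over 5.57, 6.10 and 6.40 (lowest, median and highest), those of tumour day 17 over 5.84, 6.05 and 6.15, and the controls had 5.66, 5.64, 5.53 and 6.02. This ubiquitin ligase gene overlapped the controls on each day, with differences of 0.55 ± 0.15, 0.29 ± 0.14 and 0.30 ± 0.14 (lowest adjusted p = 0.174). Trim25, the ligase that activates the RNA sensor RIG-I, differed by 0.35 ± 0.13, 0.27 ± 0.12 and 0.20 ± 0.13. Isg15, near background, differed by 0.09 ± 0.12, 0.07 ± 0.11 and 0.16 ± 0.12; neither was called.

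Parp12 and Parp14 encode enzymes that add ADP-ribose to proteins. For Parp12 the log2 values were 6.93, 6.90, 6.80, 6.95 and 6.94 on tumour day 10. They were 6.68, 6.80 and 7.03 as lowest, median and highest on tumour day 14 and 6.66, 6.95 and 7.03 on tumour day 17, and 6.69, 6.75, 6.72 and 6.68 in the controls. Parp14 measured 5.26, 5.30, 4.91, 5.14 and 4.95 in the tumour-bearing mice of day 10. Its lowest, median and highest log2 values were 4.56, 4.95 and 5.06 on tumour day 14 and 4.44, 4.97 and 5.04 on tumour day 17, against 4.89, 4.67, 4.44 and 4.71 in the controls. Both lay above the controls on day 10 and overlapped them later. The Parp12 differences were 0.19 ± 0.07, 0.11 ± 0.07 and 0.19 ± 0.07 (lowest adjusted p = 0.178) and the Parp14 differences were 0.43 ± 0.13, 0.15 ± 0.12 and 0.21 ± 0.13 (lowest adjusted p = 0.245).

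Of the transcription factors, none was called. Irf7 drives the later wave of type I interferon genes. The 5 mice of tumour day 10 had Irf7 values of 4.17, 4.56, 4.26, 4.12 and 4.21, those of tumour day 14 ran over 4.08, 4.31 and 4.68 (lowest, median and highest), those of tumour day 17 over 4.11, 4.33 and 4.56, and the controls had 4.07, 3.92, 3.72 and 3.95. Irf7 was the only member besides Oasl2 whose groups did not overlap the controls on any day. Its differences were 0.35 ± 0.12 on day 10 (adjusted p = 0.303), 0.40 ± 0.11 on day 14 (adjusted p = 0.15) and 0.40 ± 0.12 on day 17 (adjusted p = 0.0918). Its control values lay between 3.72 and 4.07, close to the background measure of 3.868.

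Irf9 encodes the DNA-binding part of ISGF3. For Irf9 the log2 values were 6.48, 6.70, 6.78, 6.78 and 6.59 on tumour day 10. They were 6.21, 6.52 and 6.66 as lowest, median and highest on tumour day 14 and 6.12, 6.55 and 6.62 on tumour day 17, and 6.36, 6.29, 6.42 and 6.48 in the controls. Only on day 10 did no mouse overlap the controls, by 6.484 against 6.478. The Irf9 differences were 0.28 ± 0.10, 0.12 ± 0.09 and 0.11 ± 0.09 (lowest adjusted p = 0.303). Irf1, a factor that responds to interferon gamma, differed by 0.14 ± 0.11, 0.05 ± 0.11 and 0.12 ± 0.11. The other Irf1 probe set differed by -0.07 ± 0.11, 0.08 ± 0.10 and 0.11 ± 0.10, so its day 10 mean was below that of controls. Stat2 differed by 0.00 ± 0.08, -0.09 ± 0.08 and -0.13 ± 0.08, and neither was called.

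Over the whole group, all tumour-bearing mice of a day lay above all controls in 17 of the 33 members on day 10, 6 on day 14 and 4 on day 17. The same held for 2.21%, 0.776% and 1.66% of all genes. All tumour-bearing mice lay below all controls in 0 members on each day, against 2.24%, 1.06% and 3.30% of all genes. On day 14 these were Gbp2, Ifit1, Irf7, Oasl2, Rsad2 and Trim25, and on day 17 Ifitm3, Irf7, Oasl2 and Rsad2. A log2 difference of at least 0.5 was reached by 10, 8 and 6 members on days 10, 14 and 17, against 0.537%, 0.436% and 0.600% of all genes. Over the 4 groups at once, the moderated F test of limma called 3 members (Oasl2, Rsad2 and Ifitm3), against 0.335% of all genes.

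Group means were sorted by 2 patterns over time, a peak on day 10 and a rise at each step. In 24 of the 33 members the day 10 mean was the highest of the 4 groups, against 27.3% of all genes. In 13 of these 24 the mean was lower at each later step, as in Ifitm3, Gbp2, Ifit1, Usp18, Irf9 and Bst2, and in the other 11 the day 14 mean was below the day 17 mean, as in Oasl2, Ifi27l2a, Eif2ak2, Ifit3 and Irgm1. In 4 members (12.1%) the mean was higher at each step over control, day 10, day 14 and day 17, against 6.54% of all genes. These were Rsad2, Samhd1, Rtp4 and Lgals3bp, and the Samhd1 means of tumour days 10, 14 and 17 were close (7.483, 7.494 and 7.508). Irf7 and Ifit2 were highest on day 14 (17.0% of all genes), and Cmpk2 in controls (34.7% of all genes). Isg15 and Xaf1 were highest on day 17 without rising at each step. With the 4 that rose at each step, 6 of the 33 members (18.2%) were highest on day 17, against 21.0% of all genes. Patterns of means are given as counts, with no test.

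**Figure D4:**
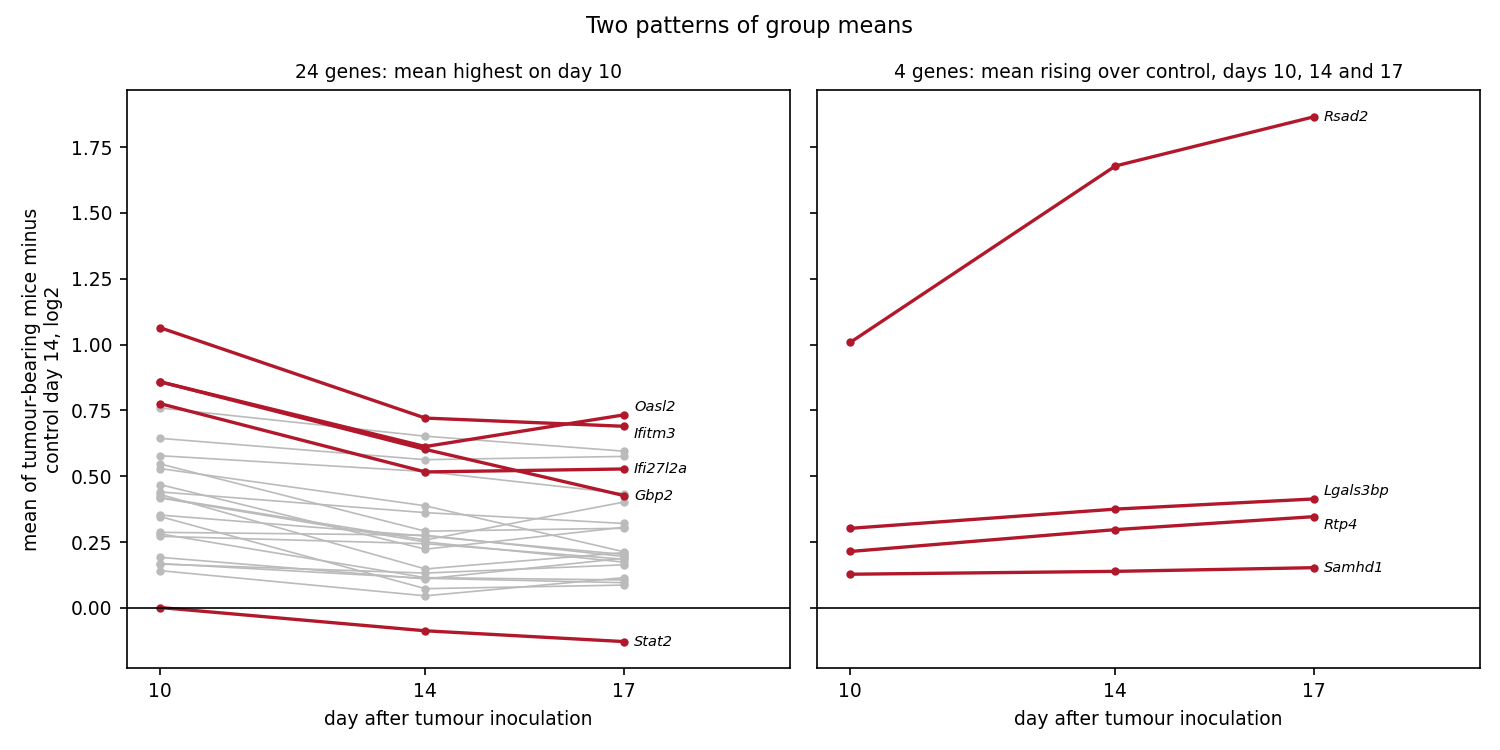
Mean log2 difference from control (y axis) on days 10, 14 and 17 (x axis); each line is 1 gene. The left panel holds the 24 genes highest on day 10, with 5 named in red, and the right panel the 4 genes whose mean is higher at each step. Ifitm3 stands at 1.06, 0.72 and 0.69, and Rsad2 at 1.01, 1.68 and 1.87.

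No member differed between the days at the threshold used. By limma, 0 of the 33 members were called on day 14 against day 10, on day 17 against day 10 or on day 17 against day 14. Of all genes, 0.00531% were called lower on day 14 against day 10, 0.00% higher there, and 0.00% in either direction in the other 2 comparisons. At an unadjusted p below 0.05, 2 members were higher and 4 lower on day 14 than on day 10 (3.04% and 4.09% of all genes). On day 17 against day 10, 1 member was higher and 2 were lower (3.08% and 5.22% of all genes), and on day 17 against day 14 there were 0 in both directions (1.82% and 2.35% of all genes). Means were higher in 7 of 33 members on day 14 than on day 10 (46.5% of all genes), in 9 on day 17 than on day 10 (43.5%) and in 18 on day 17 than on day 14 (45.7%). The median difference was -0.082, -0.092 and 0.011 in these 3 comparisons.

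Rsad2 differed by 0.67 ± 0.29 between day 14 and day 10 (adjusted p = 0.66) and by 0.86 ± 0.30 between day 17 and day 10 (adjusted p = 0.477). Ifitm3 differed by -0.34 ± 0.16 and -0.37 ± 0.16 in the same comparisons (adjusted p = 0.679 and 0.584). For Oasl2 the differences were -0.25 ± 0.10 and -0.13 ± 0.11, and for Gbp2 day 17 differed from day 10 by -0.43 ± 0.17 (adjusted p = 0.515). Neither the order of the Rsad2 means nor the day 10 peak of Ifitm3, Oasl2 or Gbp2 was a called difference between days.

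The other genes of the interferon pathway were read from lists of their own, also chosen with earlier results of these data known. Of the 14 measured interferon genes, 14, 9 and 9 had higher means than controls on days 10, 14 and 17. Of all genes, 50.3%, 48.0% and 46.3% did. The median differences of the interferon genes were 0.09, 0.04 and 0.06, and none was called. In each group only 5 of the 14 had a mean above the background measure, so most of these values had little signal over background. Ifng, the interferon gamma gene, differed by 0.26 ± 0.08, 0.11 ± 0.07 and 0.15 ± 0.08, and Ifnb1, the interferon beta gene, by 0.15 ± 0.09, -0.07 ± 0.08 and 0.10 ± 0.08. Both lay mostly below the background measure. None of the 9 measured receptor and kinase genes was called, with Ifngr2 at 0.08 ± 0.06, -0.04 ± 0.05 and -0.09 ± 0.06 and Jak1 at -0.09 ± 0.06, -0.12 ± 0.06 and -0.15 ± 0.06. None of the 13 inducers upstream of interferon was called, with Ddx58, the gene of the RNA sensor RIG-I, at 0.31 ± 0.10, 0.17 ± 0.09 and 0.23 ± 0.09 and Irf3 at -0.08 ± 0.08, -0.14 ± 0.08 and -0.23 ± 0.08. None of the 8 negative regulators was called, among them the phosphatase genes Ptpn6 and Ptpn2 at 0.18 ± 0.08 and -0.04 ± 0.09 on day 10, 0.08 ± 0.08 and -0.17 ± 0.08 on day 14 and -0.03 ± 0.08 and -0.15 ± 0.09 on day 17.

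Calls were found in the list of ISG15 conjugation and immunoproteasome genes (8 measured, 1 called on each day). Of the other interferon-stimulated genes (48 measured), 3, 2 and 3 were called on days 10, 14 and 17. All were higher, against 0.101%, 0.197% and 0.436% of all genes called higher on these days. On day 10 the called genes were the chemokine genes Cxcl9 (1.21 ± 0.23, adjusted p = 0.034) and Cxcl10 (0.93 ± 0.17, adjusted p = 0.0325). Oas2, another oligoadenylate synthetase, was called with 0.61 ± 0.09 (adjusted p = 0.0161), and the immunoproteasome subunit Psmb8 with 0.44 ± 0.09 (adjusted p = 0.041). None of these 4 was called on days 14 or 17, where Cxcl10 differed by 0.55 ± 0.16 and 0.45 ± 0.17 and Oas2 by 0.27 ± 0.09 and 0.29 ± 0.09. Psmb8 lay below the background measure in most arrays. For Cxcl9 and Oas2 all controls lay below it (highest 3.84 and 3.79), so the size of their differences is uncertain.

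Isg20, an RNA-degrading exonuclease gene, differed by 0.74 ± 0.24 on day 10 (adjusted p = 0.286), 1.38 ± 0.23 on day 14 (adjusted p = 0.00755) and 1.71 ± 0.23 on day 17 (adjusted p = 0.00115). Ube2l6, the gene of the enzyme that passes ISG15 to its targets, differed by 0.63 ± 0.24 on day 10 (adjusted p = 0.365), 1.17 ± 0.23 on day 14 (adjusted p = 0.0233) and 1.57 ± 0.23 on day 17 (adjusted p = 0.00211). The RNA helicase gene Znfx1 differed by 0.41 ± 0.10 on day 10 (adjusted p = 0.139), 0.55 ± 0.09 on day 14 (adjusted p = 0.00791) and 0.69 ± 0.10 on day 17 (adjusted p = 0.00115), and Lgals9, a galectin gene, was called on day 17 with 0.28 ± 0.07 (adjusted p = 0.0414). Isg20, Ube2l6 and Znfx1 had the order of means of Rsad2. For Isg20 and Ube2l6, the highest array in all 4 groups was also the one highest in the red cell mean. In Znfx1 this held in 2 groups.

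**Figure D5:**
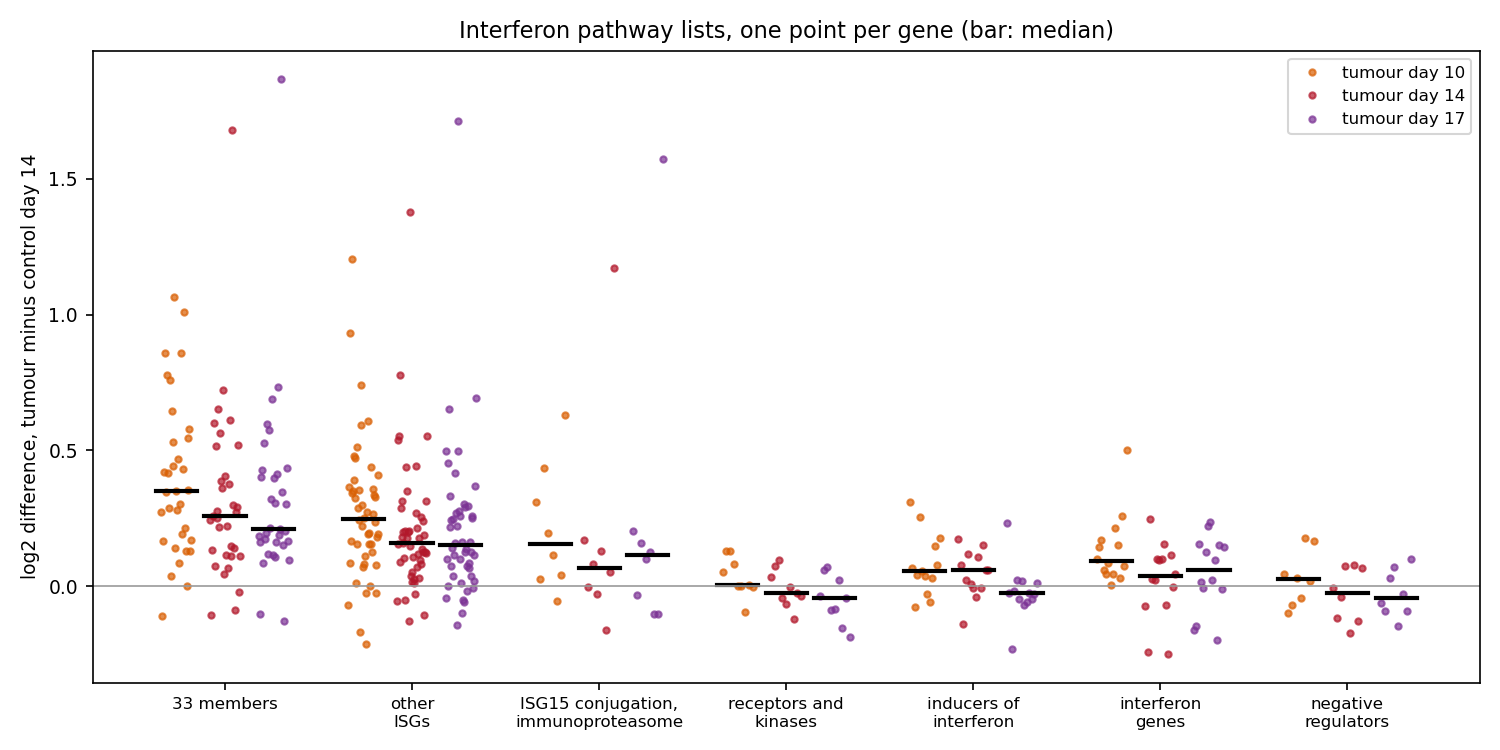
Log2 differences between tumour-bearing mice of days 10, 14 and 17 and controls (y axis) for the 33 members and 6 other interferon lists (x axis); each point is 1 gene and black bars are medians. The lists of receptors, inducers, interferon genes and negative regulators have medians between -0.05 and 0.09, while the members have medians of 0.35, 0.26 and 0.21.

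Markers of other cells were set beside these values. The 12 meningeal fibroblast markers had a mean of 5.43 to 6.79 on tumour day 10, 5.16 to 6.76 on tumour day 14 and 5.22 to 6.55 on tumour day 17, against 5.39 to 6.09 in controls; 12, 10 and 10 of them had higher means than controls, and none was called. With this mean as a term, 2, 3 and 4 members were called on days 10, 14 and 17, among 8, 39 and 154 of all genes. Ifitm3 then differed by 0.87 ± 0.13 on day 10 (adjusted p = 0.00908), and the day 10 call of Ifi27l2a was lost (adjusted p = 0.0800). The 14 microglial markers averaged 6.23, 6.16 and 6.09 on tumour days 10, 14 and 17 and 6.20 in controls, and Fcrls was called lower on days 14 and 17. The 11 endothelial markers averaged 6.95, 6.95 and 6.97, against 6.92 in controls. The 12 markers of circulating leukocytes averaged 3.59, 3.55 and 3.58, against 3.50 in controls, under the background measure in each group, and 9 of them had higher means on each day; their part in the results was not tested. Ependymal markers had higher means than controls in 1, 1 and 0 of 7 on days 10, 14 and 17, with median differences of -0.14, -0.12 and -0.29, and Tmem212 was called lower on day 17. Oligodendrocyte markers had higher means in 7, 1 and 1 of 8 and astrocyte markers in 5, 4 and 4 of 10, and none of these was called.

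All 10 thalamus markers had lower means in tumour-bearing mice on each day. Their mean was 7.41 to 7.88 on tumour day 10, 7.49 to 8.26 on tumour day 14 and 7.44 to 7.98 on tumour day 17, against 7.54 to 8.59 in controls. Control replicates 1 and 3 were among the 4 highest arrays. Without those 4 arrays, which left 2 controls, no gene of all 18820 was called, while the median difference of the members was 0.32, 0.26 and 0.23 on days 10, 14 and 17. Oasl2 then differed by 0.79 ± 0.16, 0.55 ± 0.16 and 0.67 ± 0.16.

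Within groups, the members tended to vary together over mice. The residuals of a member, after its group means were taken off, correlated with the mean residual of the other members over the 22 arrays at up to r = 0.82 (Ifih1 and Irgm1), and at 0.81 for Usp18. The lowest values were 0.063 for Stat2 and 0.098 for Cmpk2. By the same measure, the genes outside the list most like the members were Anxa2 (r = 0.91), H2-Aa (0.86), Cd74 (0.86), H2-Ab1 (0.86) and S100a11 (0.84). H2-Aa, H2-Ab1 and Cd74 encode parts of the MHC class II system, which presents antigen to T cells, and Anxa2 and S100a11 encode calcium-binding proteins. H2-Aa differed from controls by 1.33 ± 0.38 on day 10, 0.98 ± 0.35 on day 14 and 0.88 ± 0.36 on day 17, and none of these 5 genes was called. All arrays share tissue dissection as a source of variation, so these correlations are descriptions.

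Members with an ISRE-type match in the promoter had a median difference of 0.45, 0.28 and 0.31 on days 10, 14 and 17 (14 members). The 13 members whose window held no match had medians of 0.28, 0.22 and 0.17. The ranges of both sets overlapped on each day, and Oasl2, called on all 3 days, was in the second set. No test was made between these sets.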

How the data were processed

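RNA from the hypothalamus of 22 mice was hybridised to 1 array each. What the authors deposited is 1 log2 value for each probe set and array, made with RMA per the submitters' processing notes; its version, the genome build and the annotation are not given in the sources used here. RMA corrects background, equalises the distributions of the arrays and summarises probes, which removes any shift common to all genes. RNA had an integrity number above 8, per the labels' protocols. From there, probe sets were named from the platform annotation, with symbols checked against RefSeq through Entrez identifiers (21185 of 21218 matched). Of 35556 probe sets, 21218 carried 1 gene, 1881 several and 12457 none; the last 2 kinds were left out. The probe set with the highest mean stood for each of 18820 genes.

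The test was limma 3.58.1 in R 4.3.3, with 4 group means, 18 residual degrees of freedom and Benjamini-Hochberg adjustment over all genes, for 6 comparisons. It was tested on simulated data, in which it recovered planted changes. Noise there was drawn independently for each gene, whereas the members varied together in the data. The simulation therefore does not show how often changes of the members' size would be called. Members given with the values of every array were those called in any comparison and the 2 of each role group with the smallest F test p. Labels show separate mice; the number of arrays limits the precision. The list of members, the other lists and the role groups were chosen with earlier results of these data known. Alternatives covered the variance prior, array weights, centring, a filter on dim genes, the probe set rule, terms for replicate number, run and cell markers, and each array left out.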

Additional observations from a re-analysis of the deposited data

Results flagged for a closer look

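In 7 of the 72 sets of arrays examined (18 members in 4 groups), 1 array lay far from the others of its group by Dixon's ratio of gap to range. Chance flags about 1 in 20 such sets. Rsad2 was 8.0728 in replicate 3 of tumour day 17, against 6.3329 to 6.7666 in the other 5 mice, and that mouse also had the highest mean of the red cell markers (5.88). Irgm1 was 6.1986 in replicate 4 of tumour day 10, against 5.8006 to 5.8785 in the others. Ifi27l2a was 4.6207 in replicate 3 of tumour day 10, below 4.9226 to 4.9789 in the others. Irf9 was 6.1180 in replicate 1 of tumour day 17, below 6.5145 to 6.6156. Replicate 6 of tumour day 17 was low in Lgals3bp (7.5816, against 7.9850 to 8.1828) and in Parp14 (4.4357, against 4.9053 to 5.0372). In the controls, Ifit3 was 7.5134 in replicate 4, against 6.9971 to 7.0130 in the other 3 mice.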

How the results depend on the processing

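Of 114 median differences of the members from controls, 112 were above 0. They come from alternative fits that were each read on days 10, 14 and 17. Of these fits, 22 left out 1 array each and so share most of their arrays. Both exceptions had the mean of the red cell markers as a term, which gave medians of 0.19, -0.0022 and -0.087 on days 10, 14 and 17. On day 10, 3 members were called, among 20 of all genes. This became 7 with array weights (76 of all genes) and 0 with either run of sample numbers alone, with the thalamus or red cell mean as a term, or without the 4 arrays highest in thalamus markers. On day 14, 2 were called (41 of all genes); this became 5 with the replicate block (140) and 0 with either run alone, with the thalamus or red cell mean, without the 4 thalamus-high arrays, or with only the 2 groups compared. On day 17, 3 were called (211 of all genes); this became 6 with a trend in the prior (323), 8 with array weights (457), 6 with arrays centred on their medians (189), 7 with genes above background only (305), 6 with the replicate block (616) and 8 at an adjusted p below 0.1 (538). It became 0 with either run alone, with the red cell mean, or without the 4 thalamus-high arrays. In the fits named so far with 0 member calls, at most 1 of all genes was called, except 13 on day 14 with the thalamus mean. Leaving out 1 array gave 0 to 4 calls on day 10, 0 to 5 on day 14 and 2 to 7 on day 17. The thalamus, red cell and meningeal terms, the fit without 4 arrays and the fit of every probe set were chosen after the data were seen. No member was called between days in any of these fits.

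Of 2106 values of named members against controls, 20 changed sign, 19 of them with the red cell mean as a term. On day 14 these were Ifih1 (-0.080), Irgm1 (-0.21), Parp12 (-0.0067), Parp14 (-0.028), Samhd1 (-0.031), Trim30a (-0.014) and Usp18 (-0.0049). On day 17 they were Gbp2 (-0.25), Ifi27l2a (-0.012), Ifih1 (-0.27), Ifit3 (-0.15), Ifitm3 (-0.086), Irf9 (-0.030), Irgm1 (-0.26), Parp14 (-0.018), Rsad2 (-0.19), Samhd1 (-0.067), Trim30a (-0.094) and Usp18 (-0.24). With the same term, Rsad2 also turned to -0.023 on day 14 against day 10 and to -0.31 on day 17 against day 10. The remaining one was Irf9 on day 17 with the thalamus mean (-0.0086). In each of these the cause was not tested.

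The labels do not say that replicate numbers pair the mice. Over 28 same-numbered pairs, deviations from the group means correlated at -0.19 to 0.35 (median 0.12), with 15 over 0.1; over 151 other pairs the median was -0.010, with 28 over 0.1. Same-numbered mice thus tended to deviate together, but not in every pair. Many same-numbered mice also share a run of sample numbers, so replicate number and run are not told apart by these correlations. As no label names a pairing, the numbers were not taken as one. The replicate block gave 3, 5 and 6 member calls on days 10, 14 and 17; under it Ifi27l2a lost its day 10 call (adjusted p = 0.0586), and Ifitm3 was called on day 14 (0.0315) and day 17 (0.0237). Among the members, Isg15 alone was at or below background in most arrays.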
